A study of Mus musculus with 10 samples.

Results

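Aminoacyl-tRNA synthetases are the enzymes that join each amino acid to its tRNA and so supply the ribosome with charged tRNAs. Cells keep a cytosolic and a mitochondrial set, and both are encoded in the nucleus. In the cytosol some of the enzymes are held in the multisynthetase complex by the scaffold proteins AIMP1, AIMP2 and AIMP3, while the mitochondrial enzymes, most of them products of separate genes, charge the tRNAs that the mitochondrial genome encodes. Gars and Kars each provide the glycyl- and lysyl-tRNA synthetase of both compartments from a single gene. When charged tRNAs run short, the kinase GCN2 (Eif2ak4) phosphorylates eIF2, and translation of the transcription factor ATF4 increases. ATF4 is known to activate genes of amino acid supply, many cytosolic synthetase genes among them.

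The genes described here were taken by name from a list of 20 cytosolic synthetases, 16 mitochondrial synthetases and the scaffold genes Aimp1 and Aimp2. All 38 were found among the 27151 genes of the table, and all 38 were among the 17088 genes that passed the filter on low values. Whole tongues or parts of tongues (the labels give only the tissue) came from C57BL/6J mice that had all been exposed to 4NQO (4-nitroquinoline 1-oxide, a DNA-damaging carcinogen used to induce oral lesions). The treated group received SP2509, an inhibitor of the histone demethylase LSD1, and holds 6 libraries, whose titles read SP2509h without saying what the h stands for; the control group received vehicle and holds 4. The sources used here give no dose, time, sex or age, there is no group without 4NQO, and the labels do not say whether lesions were sampled.

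Values are normalised reads, that is, reads per gene divided by a size factor for each library. Total reads ran from 15748571 to 19375555 in SP2509 libraries and from 9180844 to 14768955 in vehicle libraries, and the 38 genes together held 35829 to 46737 reads in SP2509 libraries and 18699 to 32822 in vehicle libraries. Mitochondrially encoded transcripts took 24.0% to 32.2% of the reads in SP2509 libraries and 35.3% to 52.1% in vehicle libraries. SP2509 replicates 1 and 2, and likewise replicates 4 and 5, lay closer to each other than any other libraries of a group at high counts. For genes of 1000 to 5000 reads the variance between the libraries of a pair was 3.49 and 3.72 times that of read sampling, against 11.1 to 163 times for other SP2509 pairings and 23.1 to 56.1 times for vehicle pairings, so each pair was counted as 1 sample in means ± SD, which leaves 4 SP2509 values. For genes of 10 to 50 reads the pairs did not stand apart in this way (2.42 and 3.52 times, against 2.86 to 6.96 for other SP2509 pairings and 2.57 to 5.72 for vehicle pairings). Keratinocyte and skeletal muscle markers, which define tongue, were above 0 in every library. The libraries differed in marker levels. The 12 muscle markers summed to 313085 to 412473 normalised reads in SP2509 replicates 1 to 5, 883301 in SP2509 replicate 6 and 171519 to 381682 in vehicle. The 10 keratinocyte markers summed to 57189 (replicate 6) to 288145 (replicate 3) in SP2509 and 88563 to 127808 in vehicle. The 9 gland markers summed to 410745 and 424187 in SP2509 replicates 4 and 5. They summed to 125 to 7856 in SP2509 replicates 1, 2, 3 and 6, and vehicle libraries had 77.9 to 519, where up to 4 of them were at 0 in a library. In bulk tissue fewer cells of a type and less RNA per cell cannot be told apart.

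All 20 cytosolic synthetase genes had a higher mean in SP2509 than in vehicle tongues with the deposited scaling (Farsa and Yars turned lower under other scalings), and the mitochondrial ones did not share a direction. The log2 fold changes of the cytosolic genes, on the log2(value + 1) scale, had a median of 0.39 and a range of 0.02 to 0.66. Of the 16 mitochondrial genes, 9 were above 0 and 7 below, with a median of 0.17 and a range of −0.65 to 0.72. Across all genes tested, 51.9% were above 0 and the median was 0.02. By limma with Benjamini-Hochberg adjustment over all genes tested, and a threshold of 0.05 on the adjusted p, 7 of 20 cytosolic genes rose (Gars, Kars, Iars, Dars, Nars, Eprs and Wars) and none fell. Among all genes 4.95% were called higher and 4.15% lower by the same rule. Of the mitochondrial genes Yars2 rose, and Hars2 and Tars2 fell. Neither Aimp1 nor Aimp2 passed the test. In all, 10 of the 38 genes were called in either direction, against 9.1% of all genes.

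**Figure D1:**
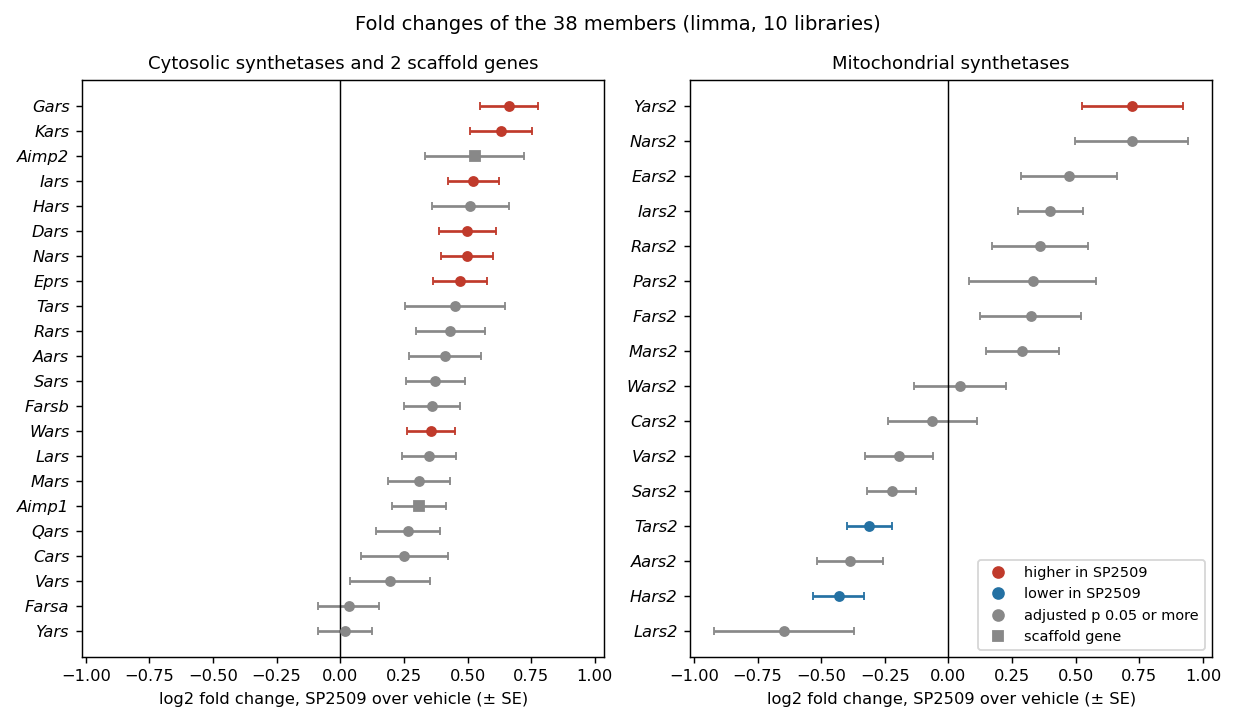
Log2 fold change (SP2509 over vehicle, limma on log2(value + 1) with the close pairs counted separately, points with their standard error) of the 20 cytosolic genes, the 16 mitochondrial genes and the 2 scaffold genes (squares). Red points were called higher, blue points lower and grey points were not called. With the deposited scaling all cytosolic points lie right of 0 (Farsa and Yars move left of it under other scalings), between 0.02 and 0.66, and the mitochondrial points spread from −0.65 to 0.72.

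These calls used all 6 SP2509 libraries, and they depend on counting the close pairs as separate. With each pair merged limma called 0 of all 17088 genes, and the lowest adjusted p was 0.0718, which Gars and Iars both had. At an unadjusted p under 0.05 in that merged fit, 14 of the 20 cytosolic genes lay higher and none lower, against 11.6% of all genes higher and 9.67% lower. DESeq2 on reads summed over each pair called the same 7 cytosolic genes, Yars2, Hars2 and Tars2, where it called 4.98% of all genes higher and 4.72% lower; edgeR on the same sums called 0 genes. The merged adjusted p stands beside each called gene below. The standard error (SE) of each log2 fold change below comes from the fit with all 6 SP2509 libraries. For Gars it was 0.11 there and 0.13 with the pairs merged, and for Lars2 0.27 and 0.24. The replicates are libraries whose separate animals the labels do not number, so these p-values measure the spread between libraries.

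Among the cytosolic enzymes the largest fold change was that of Gars, the glycyl-tRNA synthetase of cytosol and mitochondria (ENSMUSG00000029777, GRCm38 chr6:55038007-55079500, plus strand). Gars had 1001, 874, 1225, 1106, 988 and 1000 normalised reads in SP2509 replicates 1 to 6, against 617, 676, 583 and 725 in vehicle replicates 1 to 4. Every SP2509 library lay above every vehicle library. The means were 1052 ± 123 in SP2509 and 650 ± 62.7 in vehicle (SD, n = 4 each), the log2 fold change was 0.66 ± 0.11 (SE), and limma's adjusted p was 0.0124, or 0.0718 with the pairs merged. Kars, the lysyl-tRNA synthetase that likewise serves both compartments (chr8:111993443-112011323, minus strand), had 1334, 1382, 1219, 1236, 1231 and 1433 in SP2509 replicates 1 to 6, against 679, 1040, 847 and 836 in vehicle. Its groups did not overlap either; the lowest SP2509 library had 1219 and the highest vehicle library 1040. Its log2 fold change was 0.63 ± 0.12 (limma adjusted p = 0.0145, or 0.0751 with the pairs merged and 0.0535 with a covariate for muscle markers).

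Kars belongs to the multisynthetase complex, and 4 of the 8 synthetases of that complex rose, with a median log2 fold change of 0.45. Of the 12 cytosolic synthetases outside it, 3 rose (Gars, Nars and Wars), with a median of 0.37; the difference between these sets was not tested. Iars, the isoleucyl enzyme of the complex (chr13:49682100-49734267, plus strand), had 512, 462, 587, 568, 535 and 578 normalised reads in SP2509 replicates 1 to 6, against 395, 376, 355 and 374 in vehicle. The groups were separate, and vehicle libraries lay close together (375 ± 16.4, n = 4, against 551 ± 45.2 in SP2509, n = 4). The log2 fold change of Iars was 0.52 ± 0.10 (limma adjusted p = 0.0143, or 0.0718 with the pairs merged). Dars, the aspartyl enzyme of the complex (chr1:128363707-128417368, minus strand), had 556, 530, 588, 570, 506 and 648 in SP2509, against 334, 433, 412 and 427 in vehicle. Vehicle replicate 1 was the low end of that group, and without it the adjusted p of Dars was 0.069. With all libraries its log2 fold change was 0.50 ± 0.11 (limma adjusted p = 0.0218, or 0.0796 with the pairs merged and 0.0953 with the muscle covariate). Eprs encodes the bifunctional glutamyl- and prolyl-tRNA synthetase (chr1:185363044-185428360, plus strand) and had 1253, 1218, 1198, 1242 and 1230 in SP2509 replicates 1 to 5 and 1568 in replicate 6, against 881, 861, 1004 and 955 in vehicle. Replicate 6 stood above the other SP2509 libraries, and all SP2509 libraries lay above all vehicle libraries. The log2 fold change of Eprs was 0.47 ± 0.11 (limma adjusted p = 0.0235, or 0.0888 with the pairs merged; 0.0744 without vehicle replicate 1, 0.0536 without vehicle replicate 2 and 0.0946 with the muscle covariate).

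Outside the complex, Nars, the asparaginyl enzyme, had 1104, 1109, 1245, 1318, 1228 and 1090 normalised reads in SP2509, against 901, 904, 764 and 781 in vehicle. The groups were separate, with a log2 fold change of 0.50 ± 0.10 (limma adjusted p = 0.0178, or 0.0797 with the pairs merged, and 0.0502 without vehicle replicate 3). Wars, the tryptophanyl enzyme (chr12:108860030-108894174, minus strand), is known in human cells as a gene that interferon-gamma induces strongly. It had 673, 614, 681, 603, 702 and 602 in SP2509, against 480, 539, 476 and 523 in vehicle. Its log2 fold change of 0.36 ± 0.09 was the smallest among the called cytosolic genes, and its groups were also separate (limma adjusted p = 0.0378, or 0.12 with the pairs merged and 0.0743 with the muscle covariate). Leaving out any library other than SP2509 replicate 6 took the adjusted p of Wars past 0.05. Gars, Iars and Kars stayed under 0.05 in all 10 fits that left out 1 library.

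**Figure D2:**
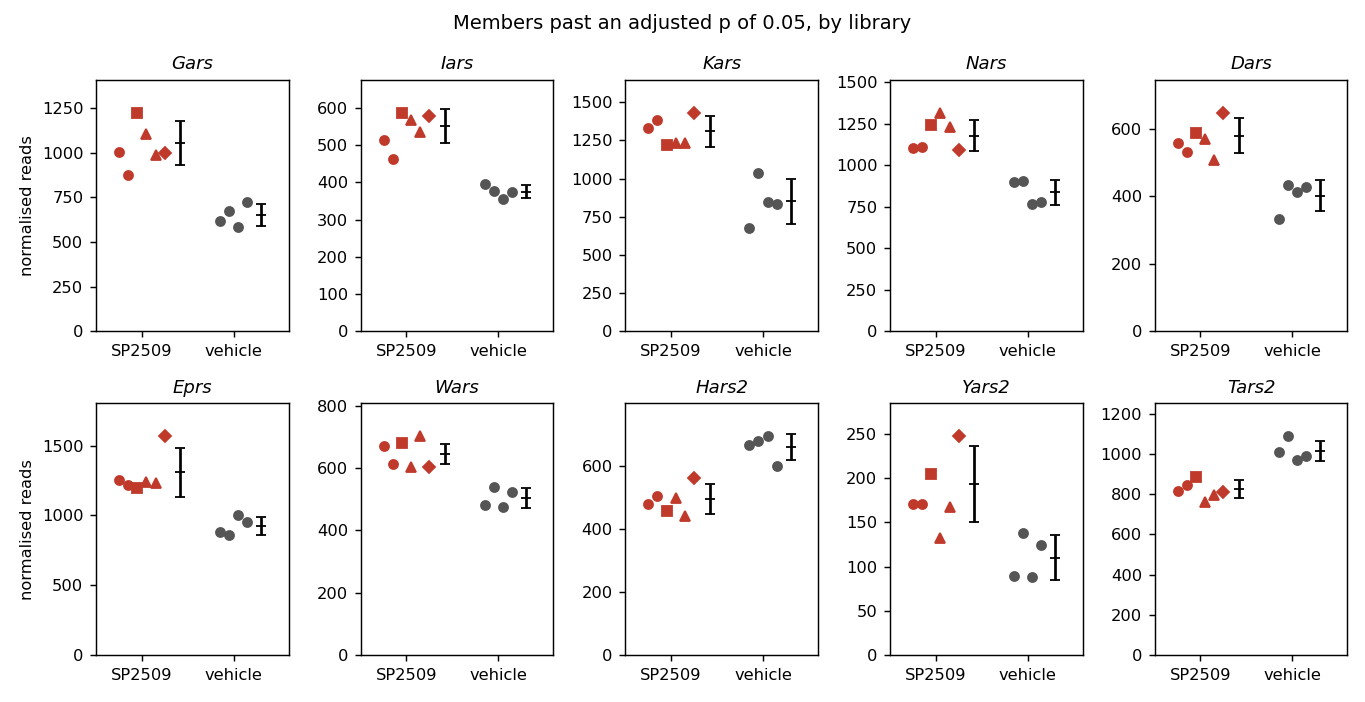
Normalised reads per library of the 10 called genes, SP2509 (red; circles replicates 1 and 2, square replicate 3, triangles replicates 4 and 5, diamond replicate 6) left of vehicle (grey), with bars for the mean ± SD over 4 SP2509 values (close pairs averaged) and 4 vehicle libraries. The groups overlap in Yars2 alone; the red points lie above the grey ones in the 7 cytosolic genes and below them in Hars2 and Tars2.

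Altogether 10 of the 20 cytosolic genes had every SP2509 library above every vehicle library, against 6.54% of all genes tested, and none had every one below, against 5.11% of all genes. The 3 of these that were not called were Hars, Lars and Sars. Hars (histidyl) had 406 to 525 normalised reads in SP2509 (median 466), against 228 to 392 in vehicle, with a log2 fold change of 0.51 ± 0.15 and a limma adjusted p of 0.0532. Lars (leucyl, of the complex) had 591 to 767 in SP2509 and 484 to 584 in vehicle (log2 fold change 0.35 ± 0.11, limma adjusted p = 0.0593). Sars (seryl) had 1421 to 2035 in SP2509 and 1279 to 1399 in vehicle (0.37 ± 0.12, limma adjusted p = 0.0618). These values sit near the threshold when the close pairs are counted as separate. With the pairs merged, limma's adjusted p was 0.141 for Hars, 0.187 for Lars and 0.185 for Sars. Rars, Farsb, Tars and Aars had log2 fold changes of 0.43, 0.36, 0.45 and 0.41 with overlapping groups, and adjusted p-values of 0.0622, 0.0611, 0.159 and 0.0814 by limma. Mars, the methionyl enzyme that also charges the initiator tRNA, had 574 to 864 in SP2509 and 567 to 598 in vehicle (0.31 ± 0.12, limma adjusted p = 0.119). Mars overlaps Ddit3 on the opposite strand, and the strand setting of the counting is not given. Opposite-strand genes also overlap the spans of Cars, Farsb, Hars, Lars, Wars and Yars. The same holds for Cars2, Ears2, Fars2, Hars2, Iars2, Nars2, Aimp1 and Aimp2. Qars, Cars and Vars lay at 0.27, 0.25 and 0.19. Farsa, the catalytic subunit of phenylalanyl-tRNA synthetase, lay at 0.03 and Yars, the tyrosyl enzyme, at 0.02, and both turned negative when libraries were rescaled on genes outside the mitochondrial ones (−0.12 and −0.13) or quantile normalised (−0.036 and −0.049). Farsb, the partner subunit of Farsa, had 412 to 550 in SP2509 and 326 to 413 in vehicle, while Farsa had 619 to 773 in SP2509 and 583 to 817 in vehicle.

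By catalytic fold, 2 of the 9 class I and 4 of the 10 class II cytosolic enzymes rose (Eprs holds one domain of each class and is the remaining call), with median log2 fold changes of 0.31 and 0.47. Of the scaffold genes, Aimp1 had 672 to 911 normalised reads in SP2509 and 588 to 673 in vehicle (log2 fold change 0.31 ± 0.11, limma adjusted p = 0.0836). Aimp2 had 132 to 223 in SP2509 and 98.8 to 167 in vehicle (0.53 ± 0.19, limma adjusted p = 0.1). The groups of both overlapped. The scaffold AIMP3 is the product of Eef1e1, counted here with the elongation factors. Eef1e1 had 202 to 303 in SP2509 (median 277), against 141, 186, 113 and 186 in vehicle; its groups were separate and it rose by 0.77 ± 0.17 on the log2 scale (limma adjusted p = 0.0229, or 0.0976 with the pairs merged).

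A motif search of promoters was made because ATF4 is known to bind, with C/EBP partners, elements whose core reads TGATGNAA. RefSeq promoters (GRCm38.p6, 250 bases before to 50 bases after the start) were matched for 29 of the 38 genes, 13 cytosolic, 14 mitochondrial and both scaffold genes, and read on both strands. The core was present in 5 of the 13 cytosolic promoters (38.5%), in 0 of the 14 mitochondrial promoters and in neither scaffold promoter, and in 4.51% of all promoters of the same length. The match nearest the start of each of these 5 genes is shown in a 30-base window on the gene's strand, with the matched letters in capitals; TTNCATCA is the same core read on the opposite strand.
Gars, before the start, chr6:55037960-55037989, plus strand: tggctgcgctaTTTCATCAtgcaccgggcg
Iars, after the start, chr13:49682126-49682155, plus strand: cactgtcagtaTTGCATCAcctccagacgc
Aars, after the start, chr8:111033840-111033869, plus strand: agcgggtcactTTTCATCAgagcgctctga
Tars, before the start, chr15:11399655-11399684, minus strand: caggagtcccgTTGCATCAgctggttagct
Yars, after the start, chr4:129189895-129189924, plus strand: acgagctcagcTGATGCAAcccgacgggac
Of these 5 genes Gars and Iars rose, Aars and Tars had log2 fold changes of 0.41 and 0.45 without passing the test, and Yars had 0.02. Of the 5 cytosolic genes that rose and had a matched promoter, 2 held the core (Gars and Iars). Kars was among those without a match. The core of the NRF1 motif was present in 23.1% of the cytosolic promoters (Farsb, Kars and Tars), 14.3% of the mitochondrial promoters (Iars2 and Mars2) and 5.19% of all promoters. The E-box CACGTG was present in 30.8% of the cytosolic promoters (Aars, Farsb, Iars and Tars), 7.14% of the mitochondrial ones (Ears2) and 8.09% of all. A match describes letters in a window and not a bound site.

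Within the SP2509 group the cytosolic and the mitochondrial genes had their extremes in different libraries. Of the 20 cytosolic genes, 10 had their highest SP2509 value in replicate 4 or 5, the close pair with the high gland markers, and 9 had their lowest in replicate 6, the library with the high muscle markers and the lowest keratinocyte markers. Of the 16 mitochondrial genes, 9 had their highest SP2509 value in replicate 6 and 9 their lowest in replicate 4. Aars had 1093, 1062, 1261, 1533, 1605 and 1174 normalised reads in SP2509 replicates 1 to 6, against 1022, 1066, 905 and 849 in vehicle. Cars had 718, 640, 726, 1063, 1135 and 726 in SP2509, against 755, 751, 638 and 606 in vehicle. Replicates 4 and 5 were the high ones in both genes, and the other 4 SP2509 libraries lay within the vehicle range for Cars. Tars had 723, 806, 785, 883 and 816 in SP2509 replicates 1 to 5 and 477 in replicate 6, against 642, 620, 362 and 581 in vehicle. Vars, the valyl enzyme, had 1913 to 2254 in replicates 1 to 5 and 1323 in replicate 6, against 1447 to 1915 in vehicle. Without replicate 6, 15 of the 20 cytosolic genes were called higher, against 11.5% of all genes in that fit. Without replicates 4 and 5, Gars and Kars were the 2 cytosolic genes called (adjusted p = 0.0464 and 0.0482 by limma), against 1.28% of all genes called higher. Without vehicle replicate 1, the shallowest library, 4 were called (Gars, Iars, Kars and Nars), against 1.0% of all genes. In every SP2509 library between 13 (replicate 6) and 19 (replicate 4) of the 20 cytosolic genes exceeded the highest vehicle library. The share of all genes that do so in a single library was not computed, so these counts have no background beside them. All 12 muscle markers had log2 fold changes above 0 (median 0.97), and none was called. In a limma fit with their mean log2 level as a covariate, Gars, Iars and Nars kept their calls, with Rars and Tars called besides, 5 of the 20 cytosolic genes against 4.18% of all genes called higher. Kars, Dars, Eprs and Wars were not called in that fit, with log2 fold changes of 0.46, 0.36, 0.35 and 0.38 and limma adjusted p-values of 0.0535, 0.0953, 0.0946 and 0.0743. All 10 keratinocyte markers also had log2 fold changes above 0 (median 0.57), and none was called. With their mean log2 level as the covariate, the cytosolic genes called higher were Gars, Kars, Iars, Dars, Nars, Eprs, Wars, Farsb and Mars. Of the 17088 genes tested, 1513 were called higher in that fit.

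**Figure D3:**
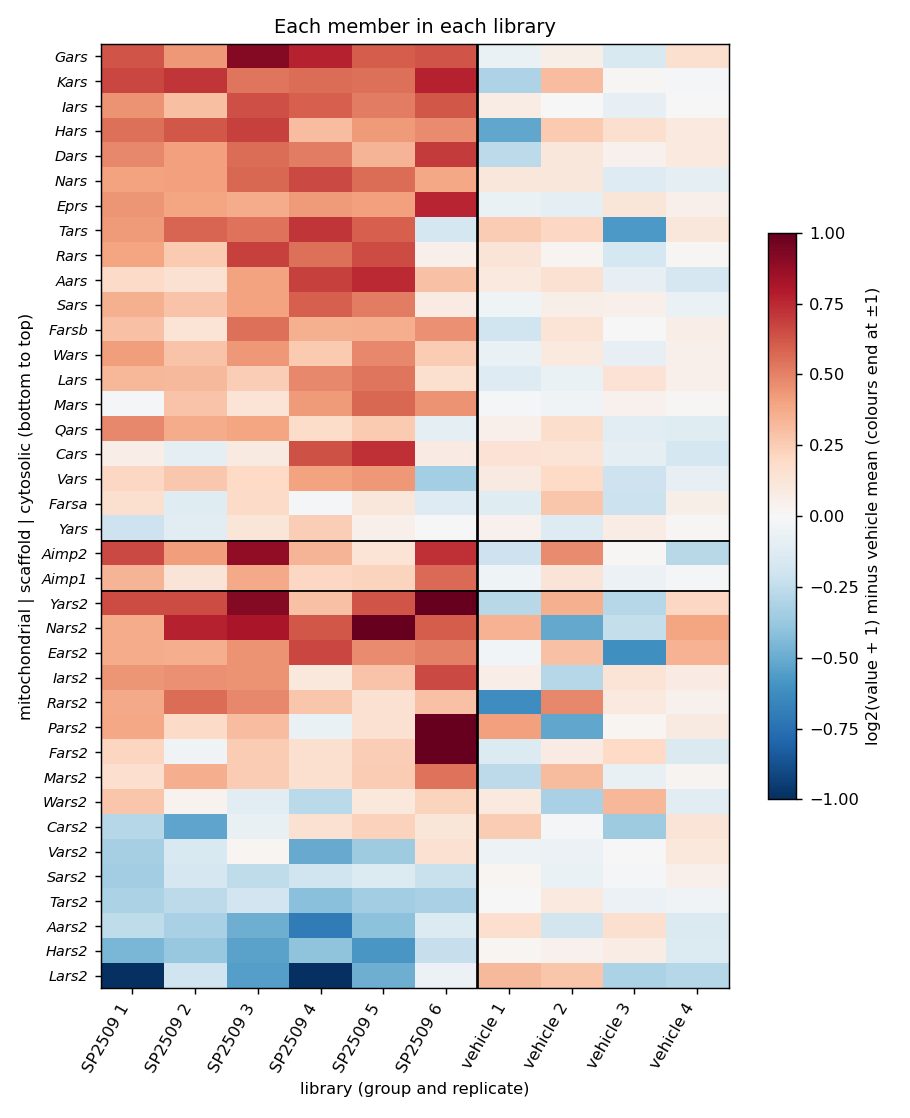
Log2 level of each of the 38 genes in each library minus its vehicle mean, SP2509 libraries left of vehicle libraries, with cytosolic genes at the top, scaffold genes below them and mitochondrial genes at the bottom; colours end at −1 and 1. Cytosolic rows are mostly red in the SP2509 columns, with Tars, Qars, Vars and Farsa blue in replicate 6, and mitochondrial rows run from red in Yars2 to blue in Lars2.

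The called mitochondrial genes went in both directions. Hars2, the mitochondrial histidyl enzyme, had 480, 506, 456, 499, 441 and 561 normalised reads in SP2509 replicates 1 to 6, against 668, 679, 694 and 601 in vehicle. Every SP2509 library lay below every vehicle library, with means of 495 ± 46.6 in SP2509 and 660 ± 41.1 in vehicle (SD, n = 4 each). Its log2 fold change was −0.43 ± 0.10 (limma adjusted p = 0.0244, or 0.1 with the pairs merged). Tars2, the mitochondrial threonyl enzyme (chr3:95739976-95760206, minus strand), had 815, 845, 887, 762, 798 and 812 in SP2509, against 1012, 1089, 973 and 991 in vehicle. Its groups were also separate, with a log2 fold change of −0.31 ± 0.09 (limma adjusted p = 0.0484, or 0.161 with the pairs merged). Yars2, the mitochondrial tyrosyl enzyme (chr16:16302965-16309640, plus strand), is known from human mitochondrial myopathy. It had 171, 171, 205, 133, 167 and 247 in SP2509, against 89.0, 138, 88.7 and 125 in vehicle. SP2509 replicate 4 lay inside the vehicle range and replicate 6 was the highest; the log2 fold change was 0.72 ± 0.20 (limma adjusted p = 0.043, or 0.0977 with the pairs merged). These 3 calls were lost more readily than those of Gars, Iars and Kars: of the 10 fits that left out 1 library, Hars2 was called in 4, Yars2 in 3 and Tars2 in 1. Without vehicle replicate 1 their adjusted p-values were 0.0699, 0.126 and 0.106, and with the muscle covariate 0.0295, 0.184 and 0.118.

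Of the mitochondrial genes that were not called, Sars2 had every SP2509 library below every vehicle library (275 to 319 in SP2509 and 335 to 364 in vehicle; log2 fold change −0.22 ± 0.10, limma adjusted p = 0.151) and Ears2 had every one above (153 to 190 in SP2509 and 77.4 to 152 in vehicle; 0.47 ± 0.19, limma adjusted p = 0.125). Aars2, the alanyl enzyme, had 411 to 609 in SP2509 and 588 to 753 in vehicle (−0.39 ± 0.13, limma adjusted p = 0.078). Nars2 and Iars2 had log2 fold changes of 0.72 and 0.40 (limma adjusted p = 0.0608 and 0.0652), and Nars2 was low throughout, with 88.6 to 151 in SP2509 and 47.6 to 89.8 in vehicle. Mars2, Rars2, Fars2 and Pars2 lay above 0, Vars2 at −0.20, and Cars2 and Wars2 at −0.06 and 0.05. Fars2 and Pars2 were each highest in SP2509 replicate 6. In that library Fars2 had 425, while SP2509 replicates 1 to 5 had 193 to 236 and vehicle libraries 179 to 227. By catalytic fold, 6 of 9 class I genes were above 0, and 3 of 7 class II genes; Hars2 and Tars2 are class II and Yars2 is class I.

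Lars2, the mitochondrial leucyl enzyme, stood apart in level. It had 5176, 10167, 7981, 4374, 8328 and 11188 normalised reads in SP2509 replicates 1 to 6, against 14611, 14112, 9393 and 9564 in vehicle. The groups overlapped through replicates 2 and 6, and the log2 fold change of −0.65 ± 0.27 did not pass the test (limma adjusted p = 0.149). Per kb of the principal transcript Lars2 averaged 2131 normalised reads in SP2509 and 3061 in vehicle. The cytosolic genes ran per kb from Iars (124.5 in SP2509 and 84.7 in vehicle) to Kars (653 in SP2509 and 424 in vehicle). The next highest mitochondrial gene per kb was Tars2 (345 in SP2509 and 423 in vehicle), and Nars2, Wars2 and Mars2 were lowest on that scale in SP2509. Lars2 also differed within the close pairs, where the other members differed little. Its higher library exceeded the lower by 1.96-fold in replicates 1 and 2 and by 1.90-fold in replicates 4 and 5, while none of the other 37 genes passed 1.32-fold and 1.43-fold in these pairs (Nars2 in both). Whether all reads counted for Lars2 come from its own transcript was not tested.

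The cytosolic and the mitochondrial enzyme for the same amino acid can be set against each other within a library, where the size factor all but cancels. Means of the log2 ratio of cytosolic to mitochondrial level were taken here over all 6 SP2509 libraries, with close pairs counted separately. They were higher in SP2509 than in vehicle in 12 of 16 pairs of enzymes, with a median difference of 0.22 on the log2 scale. The SP2509 libraries all lay above the vehicle libraries in 3 pairs and the groups overlapped in 13. How often ratios of other genes separate in this way was not computed, and Eprs stands in the pairs for both glutamate and proline. For histidine the log2 ratio of Hars to Hars2 was −0.31 to 0.20 in SP2509 and −1.55 to −0.78 in vehicle. Hars and Hars2 stand head to head on opposite strands and overlap by 198 bases, and the strand setting of the counting is not known here. For alanine the log2 ratio of Aars to Aars2 was 0.95 to 1.90 in SP2509 and 0.28 to 0.86 in vehicle. For serine the log2 ratio of Sars to Sars2 was 2.24 to 2.74 in SP2509 and 1.81 to 2.06 in vehicle. In these 3 pairs the mean ratio differed by 0.94, 0.80 and 0.60 on the log2 scale. Tyrosine ran the other way, with 1.40 to 2.54 in SP2509 and 2.11 to 2.94 in vehicle for Yars to Yars2, a difference of −0.70 with overlapping groups. Phenylalanine (Farsa to Fars2, −0.29) and asparagine (−0.22) also had a lower mean ratio in SP2509, and glutamate (Eprs to Ears2, −0.0038) hardly differed. The other subunit, Farsb, was not paired, and its log2 fold change of 0.36 was close to the 0.32 of Fars2. With the close pairs averaged, the mean glutamate ratio was 2.97 in SP2509 and 2.95 in vehicle, so its direction turned. The same held for methionine (Mars to Mars2), at 1.80 and 1.81, against a difference of 0.019 over all 6 SP2509 libraries. The pair for leucine differed by 0.99 with overlapping groups, and rests on Lars2.

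**Figure D4:**
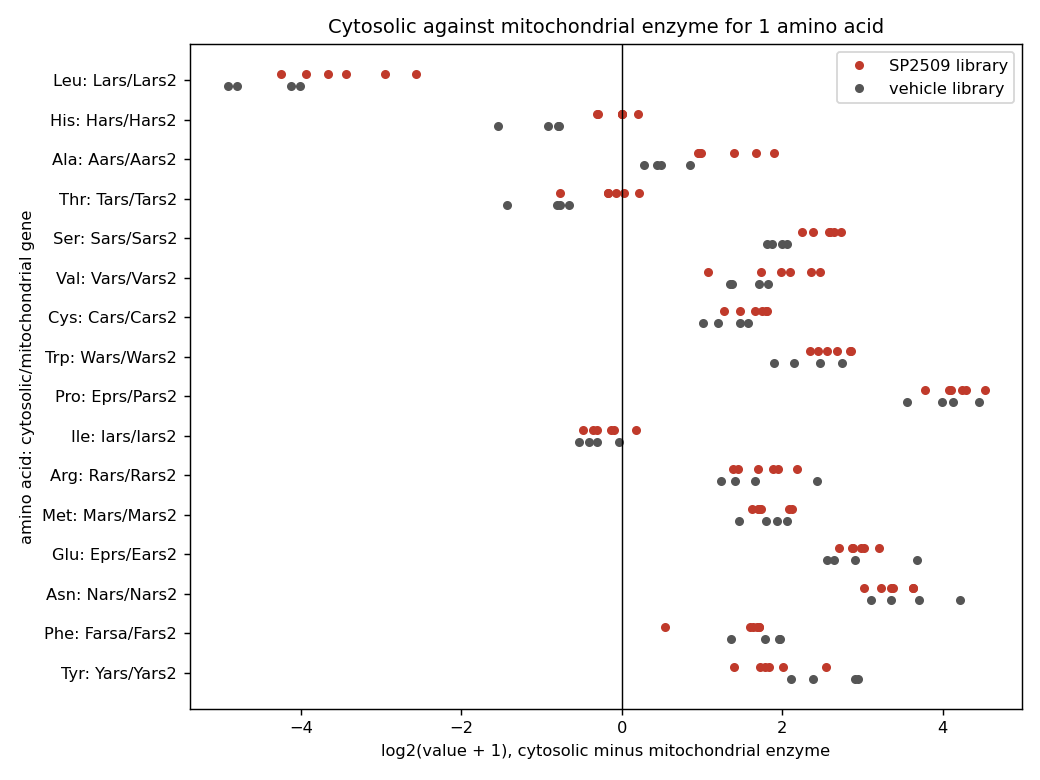
Log2 level of the cytosolic minus the mitochondrial enzyme for the same amino acid in each library, SP2509 (red) above vehicle (grey), for 16 pairs. The groups are separate for histidine, alanine and serine and overlap in the other 13.

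Over whole classes, the 20 cytosolic genes summed to 17145 to 20130 normalised reads in SP2509 libraries (median 18683) and 13761 to 15528 in vehicle libraries, without overlap. The mitochondrial genes other than Lars2 summed to 4359 to 5576 in SP2509 (median 4748) and 4991 to 5056 in vehicle, with the SP2509 range spanning the vehicle range. The median log2 level of cytosolic genes exceeded that of mitochondrial genes by 1.67, 1.56, 1.64, 1.70, 1.66 and 1.20 in SP2509 replicates 1 to 6, against 1.37, 1.34, 1.42 and 1.44 in vehicle. SP2509 replicates 1 to 5 lay above all vehicle libraries in this difference and replicate 6 lay below them all. Rescaling on genes outside the mitochondrial ones moved the median of all genes to −0.13, and the medians of cytosolic and mitochondrial genes then lay 0.37 and 0.14 above it, against 0.37 and 0.15 with the deposited scaling. In that rescaled fit 297 genes of all were called higher and 1442 lower, against 846 and 709 with the deposited scaling and 666 and 1060 after quantile normalisation. Of the members, Gars, Iars and Kars were then called higher and Aars2, Hars2 and Tars2 lower.

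Genes that work beside the synthetases were taken from lists of the pathway. Of 8 genes listed as cytosolic elongation factors, 4 rose and none fell, against 4.95% of all genes called higher. The 4 include Eef1e1, the gene of the scaffold AIMP3 described above. All 8 had log2 fold changes above 0 (median 0.67), against 51.9% of all genes. Eif5a, whose product helps ribosomes past stalling sequences, had 4288 to 7362 normalised reads in SP2509 (median 6407), against 2859, 3707, 3073 and 3921 in vehicle. Eef2, the translocation factor, had 18665 to 23956 in SP2509 (median 19648), against 11122, 13648, 13024 and 13108 in vehicle. Eef1g, a subunit of the exchange factor that recycles the tRNA carrier eEF1A, had 5460 to 6877 in SP2509 (median 6098), against 3380, 4591, 3598 and 4049 in vehicle. None of these 3 overlapped between groups, and their log2 fold changes were 0.87, 0.69 and 0.64 (limma adjusted p = 0.015, 0.0219 and 0.0175, or 0.0796, 0.0977 and 0.0839 with the pairs merged).

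In mitochondria, Tufm, the elongation factor that brings charged tRNA to the mitochondrial ribosome, was the called gene among 10 translation factors (median 0.17). Tufm had 1081 to 1942 normalised reads in SP2509 (median 1165), against 595, 911, 750 and 786 in vehicle (log2 fold change 0.74 ± 0.17, limma adjusted p = 0.0253, or 0.0801 with the pairs merged). Of 13 genes of mitochondrial tRNA charging and maturation (median 0.12), Trmt10c, a subunit of mitochondrial RNase P, rose. The shares called higher were 10% of the translation factors and 7.69% of these 13 genes, against 4.95% of all genes. Each share rests on 1 gene, so the counts say little about either list. Trmt10c had 212 to 240 in SP2509 (median 229), against 187, 144, 144 and 145 in vehicle (0.55 ± 0.12, limma adjusted p = 0.0222, or 0.0967 with the pairs merged). Guf1 (−0.32), the recycling factor Mrrf (0.55) and Mtfmt, the formyltransferase of the initiator tRNA (−0.41), did not pass the test. None of 7 other charging and editing genes was called (median 0.08).

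Genes of the integrated stress response and of amino acid supply, 31 in all, held 2 that rose and none that fell, with 24 log2 fold changes above 0 and a median of 0.21; 2 of 31 is 6.45%, near the 4.95% of all genes called higher. Eif4ebp1, an inhibitor of cap-dependent translation and a known ATF4 target, had 545 to 880 normalised reads in SP2509 (median 703), against 195, 367, 338 and 363 in vehicle (log2 fold change 1.18 ± 0.21, limma adjusted p = 0.0125, or 0.0718 with the pairs merged). Ddit4, an inhibitor of mTORC1 signalling, had 573 to 960 in SP2509 (median 718), against 404, 541, 497 and 331 in vehicle (0.73 ± 0.17, limma adjusted p = 0.024, or 0.0763 with the pairs merged). Both had separate groups. Asns, the asparagine synthetase and a classical ATF4 target, had 395, 422, 396, 703, 718 and 125 in SP2509 replicates 1 to 6, against 182, 230, 151 and 200 in vehicle. Replicates 1 to 5 lay above all vehicle libraries and replicate 6 below them all, and the gene was not called (1.09 ± 0.39, limma adjusted p = 0.0967). Atf4 transcripts were 3284, 3082, 3292, 4640, 4539 and 3562 in SP2509, against 3139, 3394, 3136 and 3082 in vehicle, with replicates 4 and 5 high (0.21 ± 0.15, limma adjusted p = 0.366). None of the 4 eIF2 kinase genes was called, and Eif2ak4, which encodes the sensor of uncharged tRNA, had a log2 fold change of −0.36 (limma adjusted p = 0.154). The data hold no measure of eIF2 phosphorylation or of tRNA charging.

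**Figure D5:**
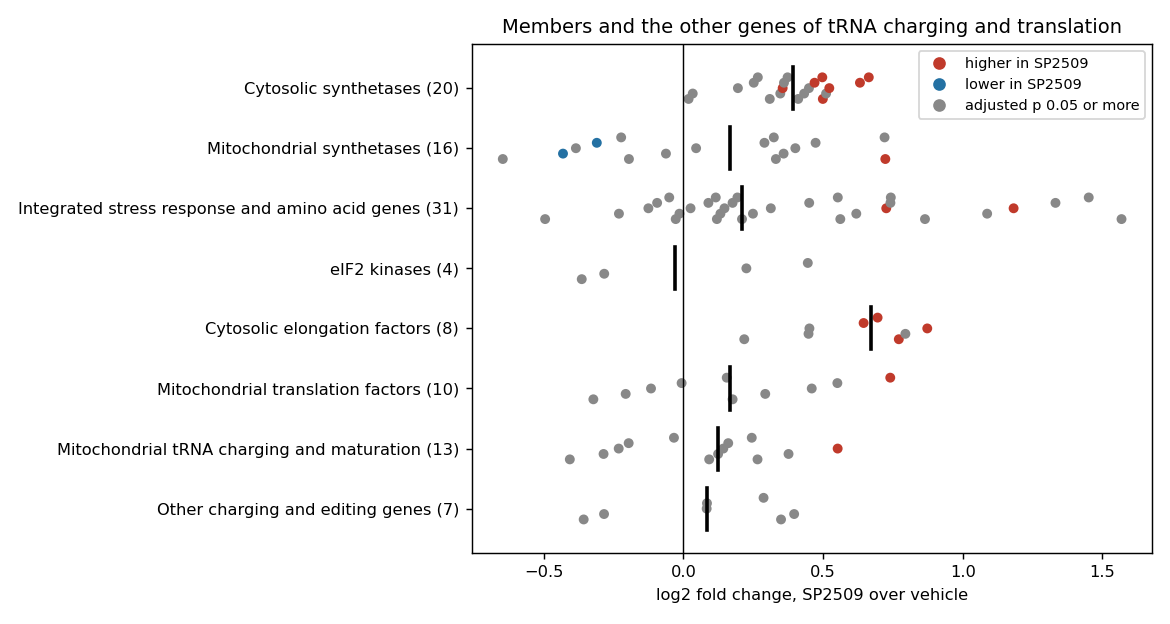
Log2 fold change (SP2509 over vehicle, limma on log2(value + 1)) of each gene in the cytosolic and mitochondrial sets and in 6 lists of the pathway, with a black bar at each median; red genes were called higher and blue genes lower. The cytosolic synthetases (median 0.39) lie wholly above 0 with the deposited scaling (Farsa and Yars do not under others). So do the genes of the cytosolic elongation factor list (median 0.67), which includes Eef1e1, and the other lists hold genes on both sides.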

How the data were processed

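RNA from 10 tongue libraries was enriched for poly-A RNA and reverse transcribed from random hexamers, per the labels' protocols. HISAT2, featureCounts and mm10 are named, per the submitters' processing notes, without versions; the sources used here do not give the annotation, strand setting or scaling tool. The deposited values are a signal in normalised reads: within 0.01, 100% of them are whole multiples of 1 value per library, so each is a count of whole reads divided by a size factor. A single read equals 0.727 to 0.873 normalised reads in SP2509 libraries and 0.898 to 1.85 in vehicle libraries.

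Of 27151 Ensembl IDs, 27113 were matched to symbols; coordinates are from GENCODE M21 (GRCm38, the build of mm10). SP2509 was compared with vehicle by limma 3.58.1 (R 4.3.3; intensity trend, robust, two-sided) on log2(value + 1), for the 17088 genes that reached 10 normalised reads in 4 or more libraries, with Benjamini-Hochberg adjustment over all of them. Fold changes on this scale understate those of low genes. Means ± SD use 4 SP2509 values, with the close pairs averaged. Count tests on the recovered reads (edgeR 4.0.16, which called 912 genes higher and 585 lower, and DESeq2 1.42.0), other filters, scalings, covariates and left-out libraries were alternatives. The fit was tested on simulated data. These held neither close pairs nor marker differences between libraries, so that test cannot say how the fit behaves with them. The members, lists and motifs were chosen with earlier results of these data known. Named are all members and, of each list, genes with an adjusted p under 0.05 or otherwise up to 4 with the smallest p. Asns, Atf4, Nupr1, Pycr1, Stc2, Slc7a11, Guf1, Mrrf and Mtfmt were named after their values were seen. Summaries used Python 3.11.15 and pandas 2.3.3. One promoter site is not reported here.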

Additional observations from a re-analysis of the deposited data

Results flagged for a closer look

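In 4 of 76 groups of values (38 genes in 2 treatment groups) 1 library lay farther from the others than Dixon's 95% critical value allows, and chance alone flags about 1 group in 20. All 4 are in SP2509 replicate 6, the library with the highest muscle marker sum (883301 normalised reads) and the lowest keratinocyte marker sum (57189). Eprs had 1568 normalised reads there, against 1198 to 1253 in the other SP2509 libraries. Vars had 1323 there, against 1913 to 2254. Fars2 had 425 there, against 193 to 236. Pars2 had 113 there, against 53.1 to 73.0. The part of muscle content in these values was not tested.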

How the results depend on the processing

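Each result was recomputed under 28 alternatives, 3 of them chosen after seeing the data (edgeR and DESeq2 on summed close pairs, and merged pairs without SP2509 replicates 4 and 5). The 7 cytosolic genes called higher became 11 with a filter at 50, 13 with DESeq2, 15 with library weights, 3 after rescaling outside mitochondrial genes, 2 without SP2509 replicates 4 and 5, 5 with a muscle covariate (Gars, Iars and Nars kept, Kars, Dars, Eprs and Wars lost, Rars and Tars gained), and 0 with the pairs merged (with or without replicates 4 and 5) or summed for edgeR; leaving out 1 library gave 4 to 15, and no setting called a cytosolic gene lower. With a keratinocyte covariate the 7 cytosolic genes stayed called, and Farsb and Mars were called besides. The 1 mitochondrial gene called higher became 2 (filter at 50, library weights, keratinocyte covariate), 3 (DESeq2) or 0 (no filter, quantile normalisation, rescaling, no trend, replicate block, merged or edgeR-summed pairs, without replicates 4 and 5), and 0 to 2 with 1 library left out. The 2 called lower became 4 (quantile normalisation, library weights), 1 (edgeR, no trend, muscle covariate) or 0 (no filter, merged or edgeR-summed pairs, without replicates 4 and 5), and 0 to 3 with 1 library left out. Counts over all genes were 846 higher and 709 lower, against 1606 and 1394 with DESeq2, 2381 and 1778 with library weights, 1513 and 1107 with a keratinocyte covariate, 714 and 440 with a muscle covariate, 553 and 479 with no filter, 490 and 481 with no trend, 219 and 156 without replicates 4 and 5, 0 and 0 with the pairs merged or summed for edgeR and, with the replicate block, 1158 and 813; leaving out 1 library gave 171 to 1971 higher and 107 to 1488 lower, lowest without vehicle replicate 1 and highest without SP2509 replicate 6.

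The cytosolic median fell to 0.24 after rescaling and was 0.35 to 0.42 with 1 library left out. The mitochondrial median was 0.018 after rescaling, 0.067 with the replicate block and −0.011 with a muscle covariate, where it reversed, and 0.047 to 0.21 with 1 library left out. The difference of medians was 0.39 with the muscle covariate and 0.16 to 0.37 with 1 library left out. The cause of these changes was not tested.

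Of 1064 values of single members under alternatives, 895 kept direction and call, 97 lost the call, 51 gained one and 21 reversed. Farsa was −0.036 with quantile normalisation, −0.12 after rescaling and −0.034 with a keratinocyte covariate, and −0.038 to 0.12 with 1 library left out. Yars was −0.049 with quantile normalisation, −0.13 after rescaling, −0.063 with library weights, −0.048 without replicates 4 and 5 and −0.011 with pairs merged as well, and −0.028 to 0.064 with 1 library left out. Wars2 was −0.10 after rescaling, −0.014 with the replicate block and −0.064 to 0.16 with 1 library left out. Fars2, at 0.32 in the fit with all libraries and no covariate, was −0.045 with a muscle covariate. Cars2 was 0.061 with a keratinocyte covariate and −0.18 to 0.030 with 1 library left out. Same-numbered libraries of the groups share only a number: the correlations of their deviations from the group means were 0.126, 0.0324, −0.198 and 0.125, and the block called 7 cytosolic genes higher, with Tars in place of Wars, and Hars2 and Lars2 lower, without Tars2 and Yars2.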

Other observations

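Tarsl2, a threonyl-tRNA synthetase gene that is neither Tars nor Tars2 and is no member of the classes compared above, had 168, 153, 140, 145, 179 and 490 normalised reads in SP2509 replicates 1 to 6, against 134, 127, 146 and 171 in vehicle replicates 1 to 4. SP2509 replicate 6 stood above the other libraries, which overlapped between groups (log2 fold change 0.40 ± 0.31, limma adjusted p = 0.423). In the same library Tars, the cytosolic threonyl gene, had its lowest SP2509 value (477) and Tars2 had 812, within the range of the other SP2509 libraries (762 to 887).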
